A study of Mus musculus with 2 samples.

Results

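The let-7 genes described here are Mirlet7b, Mirlet7d, Mirlet7e, Mirlet7g, Mirlet7i and Mir98, 6 of the 2202 microRNA genes counted and 6 of the 14 let-7 genes among them. They were chosen by GENCODE symbol because the main mature form of each comes from 1 genomic locus, a rule that uses no measured value. The data are small RNA libraries from gastrocnemius, a large muscle of the calf. The mice were B6CASTF1/J females aged 36 days, first-generation hybrids of a C57BL/6 and a CAST/EiJ parent. There are 2 libraries, replicate 2 and replicate 1, made from total RNA with a size range below 30 bases and forming 1 group with no treatment named in the labels, so no comparison of conditions exists. The labels number the libraries as biological replicates and describe different females. The same labels give both libraries 1 donor identifier, so the spread between the libraries may be technical.

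The let-7 family is one of the most conserved microRNA families of animals. Its primary transcripts are cut to hairpins by Drosha and then to mature microRNAs by Dicer, and the RNA-binding protein Lin28 blocks these steps in stem cells and early embryos. Mature let-7 accumulates as tissues differentiate, skeletal muscle included, and represses growth-related messengers such as Hmga2 and those of the Ras genes. Targets are recognised mainly through the seed, bases 2 to 8 of the mature strand.

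The mature 5p strands of the 6 genes are shown because their few differing letters allow reads to be assigned to 1 locus. The sequences and their positions are from RefSeq (GRCm38.p6), in which all 6 genes were matched, and capitals mark the seed. The last 2 lines give let-7a-5p and let-7c-5p of the duplicated genes Mirlet7a-1 and Mirlet7c-1 for comparison.
let-7g-5p of Mirlet7g: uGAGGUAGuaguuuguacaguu
let-7i-5p of Mirlet7i: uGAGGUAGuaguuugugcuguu
let-7d-5p of Mirlet7d: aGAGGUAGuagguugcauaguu
let-7b-5p of Mirlet7b: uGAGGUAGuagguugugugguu
miR-98-5p of Mir98: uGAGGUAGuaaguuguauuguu
let-7e-5p of Mirlet7e: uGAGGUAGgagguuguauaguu
let-7a-5p of Mirlet7a-1: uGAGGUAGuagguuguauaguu
let-7c-5p of Mirlet7c-1: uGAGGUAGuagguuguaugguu

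All 6 members are 22 bases long and share 1 seed, GAGGUAG, which 13 genes of the RefSeq table carry. Of the 22 positions, 14 hold the same letter in all 6 members, and the differences fall outside the seed. With positions counted from 1 at the 5′ end and the let-7a letter given first, let-7e-5p differs from let-7a-5p by U9G alone. The strand of Mirlet7g differs from let-7a-5p by G12U and U18C, that of Mirlet7d by U1A and U16C, and that of Mir98 by G11A and A19U. The strand of Mirlet7b differs from let-7c-5p by A17G alone, with the let-7c letter first. Among the 15 pairs of members the number of differences ran from 2, between Mirlet7g and Mirlet7i, to 6, between Mirlet7d and Mirlet7i, with a median of 4. Mirlet7g and Mirlet7i differ by A17G and A19U, with the Mirlet7g letter first.

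Reads that matched several places in the genome were not given to any gene, so these letters bear on what could be counted. For Mirlet7b, Mirlet7e, Mirlet7g and Mirlet7i, the first 17 bases of the 5p strand are the shortest 5′ stretch found in no other gene's hairpin among the 1005 RefSeq hairpins. The stretch is 11 bases for Mir98 and 9 bases for Mirlet7d, whose first letter differs from that of the other members. Each mature strand of the members, 5p and 3p, was found whole in the hairpin of its own gene and in no other. The counts are per hairpin, so reads of the 5p and 3p strands are added together. How many shorter or mismatched let-7 reads were left uncounted was not analysed here.

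The genes lie on 6 chromosomes of mm10, each inside a longer annotated gene on the same strand. Mirlet7g (ENSMUSG00000065440.1, chromosome 9, 106178840 to 106178927, plus strand) is in an intron of Wdr82, which encodes a subunit of a histone methyltransferase complex. Mirlet7i (ENSMUSG00000065406.3, chromosome 10, 122985640 to 122985724, minus strand) is in the transcribed processed pseudogene D630033A02Rik, exonic in 1 of 2 transcripts and intronic in the other. Mirlet7d (ENSMUSG00000065453.1, chromosome 13, 48536012 to 48536114, minus strand) is in an exon of the long non-coding RNA 6720427I07Rik, which also holds Mirlet7f-1 and Mirlet7a-1. Mirlet7b (ENSMUSG00000065564.1, chromosome 15, 85707319 to 85707403, plus strand) is exonic in the non-coding Lncppara, as is Mirlet7c-2. Mir98 (ENSMUSG00000065536.2, chromosome X, 151913214 to 151913321, plus strand) is intronic in Huwe1, which encodes a ubiquitin ligase, as is Mirlet7f-2. Mirlet7e (ENSMUSG00000105758.1, chromosome 17, 17830352 to 17830444, plus strand) is intronic in Spaca6, a gene known for sperm-egg fusion. It follows Mir99b and precedes Mir125a, and the annotated microRNA gene Gm25927 lies over it on the other strand. The hairpins had a G and C content between 44.4% in Mir98 and 62.4% in Mirlet7e.

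The gene-assigned reads numbered 2078101 in replicate 2 and 1593787 in replicate 1. Multiply matched reads numbered 10919725 (77.6% of the library) in replicate 2 and 7195252 (75.4%) in replicate 1, which is 29.8 and 31.3 for each read of the 6 genes. A count of 0 allows up to 3 reads, or 1.44 counts per 1000000 gene-assigned reads (CPM) in replicate 2 and 1.88 CPM in replicate 1. All intervals and limits given here cover counting error only, since copies made by PCR cannot be told from separate molecules. In total RNA of a tissue, fewer cells of a type and less RNA per cell cannot be told apart. The 8 muscle markers all had reads, 7 of them at least 10 in both libraries. Their counted reads, which leave out those that matched several places, summed to 69391 CPM in replicate 2 and 22090 CPM in replicate 1.

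By counted reads, which leave out those that matched several places, Mirlet7g and Mirlet7i were among the 6 highest microRNA genes of both libraries. Together the 6 genes held 17.7% of gene-assigned reads in replicate 2 and 14.4% in replicate 1. Their mean share was 16.0% ± 2.28 (SD, n = 2), or 2.72% of a total that also counts the multiply matched reads. How many of the multiply matched reads came from microRNAs was not analysed, so 2.72% need not be a share of microRNA reads. Levels of different members are compared as shares of reads without a length correction, since all mature 5p strands have the same length. Ligation of adapters depends on the sequence, so such comparisons are of reads and not of molecules.

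Mirlet7g had 155904 reads in replicate 2 and 91702 in replicate 1, which made it the third and the fourth most abundant gene. These were 7.50% (95% exact binomial interval 7.47 to 7.54) and 5.75% (5.72 to 5.79) of gene-assigned reads, with a mean of 6.63% ± 1.24. Mirlet7i had 111344 reads in replicate 2 and 82948 in replicate 1. Its shares were 5.36% (5.33 to 5.39) and 5.20% (5.17 to 5.24), ranks 6 and 5, with a mean of 5.28% ± 0.109. The lower share of Mirlet7g was above the higher share of Mirlet7i, so the values of these genes did not overlap.

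Mirlet7d, which shares its transcript with Mirlet7a-1 and Mirlet7f-1, followed Mirlet7i in level. It had 55243 reads in replicate 2 and 29165 in replicate 1, or 2.66% (2.64 to 2.68) and 1.83% (1.81 to 1.85), with a mean of 2.24% ± 0.586. Mirlet7b had 31596 reads in replicate 2 and 18217 in replicate 1, or 1.52% (1.50 to 1.54) and 1.14% (1.13 to 1.16), with a mean of 1.33% ± 0.267. Both were at rank 9 to 19 in either library, and the higher share of Mirlet7b was below the lower share of Mirlet7d.

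The other members were lower, and Mirlet7b had 4.03 reads per read of Mir98 in replicate 2 and 3.55 in replicate 1. Mir98, which carries a let-7 seed under another name, had 7841 reads in replicate 2 and 5136 in replicate 1, or 0.377% (0.369 to 0.386) and 0.322% (0.314 to 0.331), at ranks 35 and 34. Mirlet7e had 4895 reads in replicate 2 and 2670 in replicate 1, or 0.236% (0.229 to 0.242) and 0.168% (0.161 to 0.174), at ranks 41 and 53. The order from Mirlet7g to Mirlet7e was the same in both libraries, and no neighbours in it overlapped. The order was not tested over animals.

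**Figure D1:**
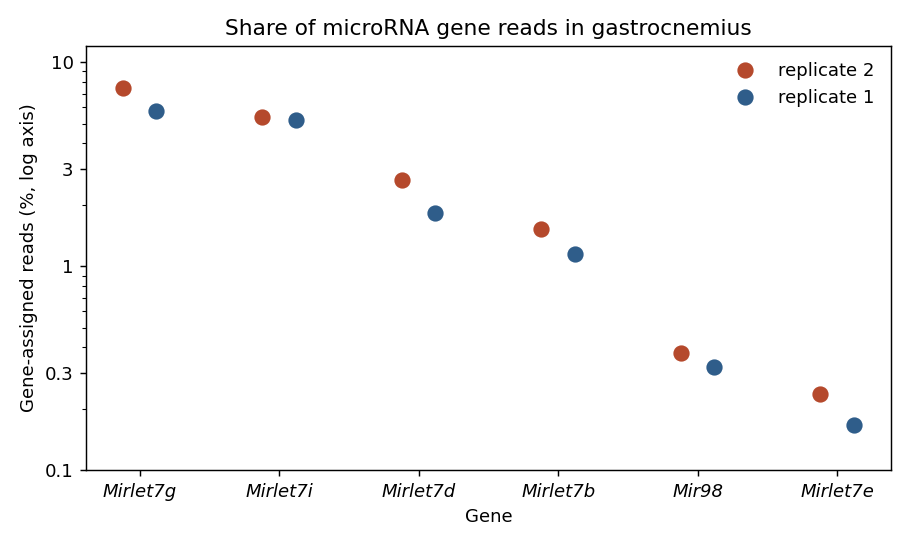
Share of gene-assigned reads (percent, log axis) of each single-locus let-7 gene, with 1 point per library, replicate 2 to the left of replicate 1. The genes run in 1 order in both libraries, from Mirlet7g with 7.50% and 5.75% to Mirlet7e with 0.236% and 0.168%.

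All 6 members had a higher share in replicate 2 than in replicate 1, by amounts that differed between members. The libraries were scaled with TMM factors, which set the bulk of genes equal between them. Mirlet7d then stood 1.52-fold higher in replicate 2 (counting interval at 95%, 1.50 to 1.54), Mirlet7e 1.47-fold (1.40 to 1.54), Mirlet7b 1.39-fold (1.37 to 1.42) and Mirlet7g 1.37-fold (1.35 to 1.38). Mir98 was 1.23-fold higher (1.18 to 1.27) and Mirlet7i 1.08-fold (1.07 to 1.09). A two-sided exact binomial test of each gene's reads, adjusted by Benjamini-Hochberg over the 273 genes with at least 10 reads in both libraries, called 6 of 6 members higher in replicate 2. In the same test 33.3% of all genes were called higher and 63.0% were called in either direction. These shares are over genes with as few as 10 reads, while the members had between 2670 and 155904 reads. A share among genes with similar counts is not given here. With scaling by total reads the test again called 6 of 6 members higher, where 28.6% of all genes were called higher. The adjusted p was 3.37e-60 for Mirlet7i and 1.44e-29 for Mir98, the smallest folds.

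These p-values compare the reads of 2 libraries and take no account of the spread between animals, and at this depth very small differences pass. The median log2 fold of the members was 0.46, with a range of 0.11 to 0.61, against 0.015 over all 273 genes. The median absolute log2 fold over all genes was 0.36, so Mir98 at 0.29 and Mirlet7i at 0.11 differed by less than the median gene and the other 4 by more. Of the 273 genes, 42 had a larger fold in the same direction than Mirlet7d and 119 had a larger one than Mirlet7i. In edgeR's exact test, run at 1 dispersion for all genes that was estimated from these same 2 libraries, 0 of 6 members were called, with unadjusted p between 0.385 and 0.875, while 1.47% of all genes were called. That dispersion holds the difference tested, so a lack of calls says little about variation between animals. None of the members had an unadjusted p under 0.05 in that test, and 19 of the 273 genes did.

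**Figure D2:**
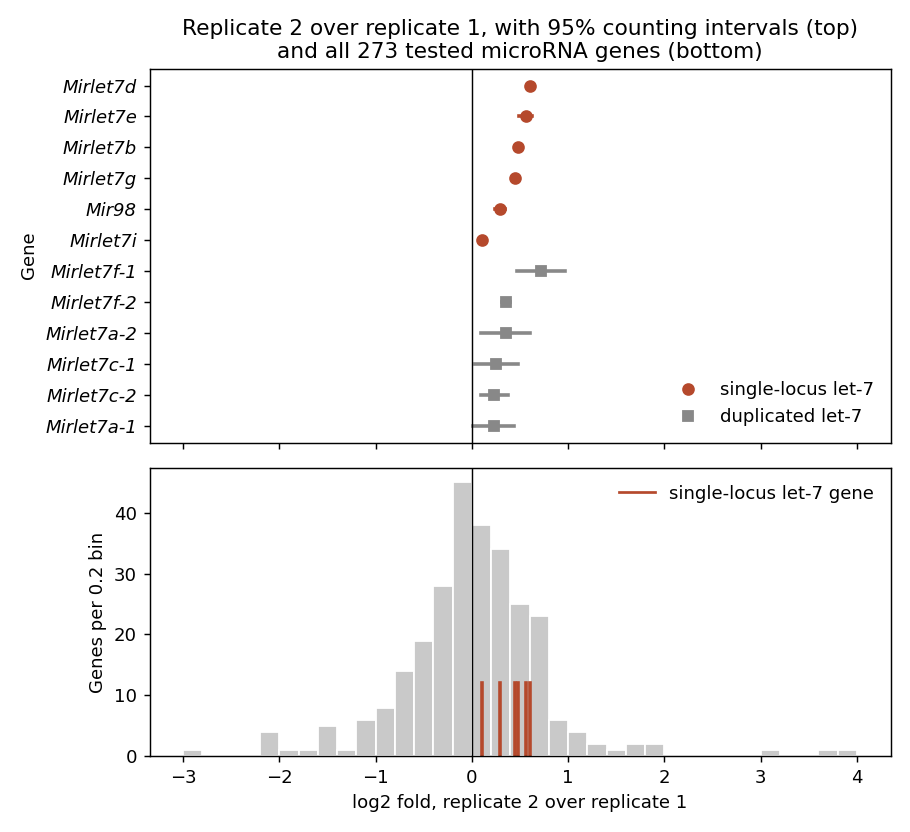
Top, log2 fold of replicate 2 over replicate 1 with 95% counting intervals for the 6 single-locus let-7 genes (circles) and 6 duplicated ones (squares). Bottom, the same quantity for all 273 tested genes as a histogram, with a line for each single-locus gene between 0.11 and 0.61.

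Mirlet7i was the steadiest member. The coefficient of variation of its share over the 2 libraries was 2.06%, and 258 of the 273 genes had a larger one. Shares are scaled by total reads. With TMM scaling, 230 of the 273 genes had a larger absolute log2 fold than Mirlet7i. The coefficient was 11.1% for Mir98, 18.7% for Mirlet7g, 20.04% for Mirlet7b, 23.9% for Mirlet7e and 26.1% for Mirlet7d, against a median of 17.3% over all genes.

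The composition of the reads of the 6 genes does not depend on how the libraries are scaled. The widest difference between the libraries was in the percent held by Mirlet7i. Its share of gene-assigned reads was 5.36% in replicate 2 and 5.20% in replicate 1, while the shares of the other 5 members rose by a larger factor. Mirlet7i held 30.4% of the members' reads in replicate 2 and 36.1% in replicate 1. Its odds against the other 5 members in replicate 2 relative to replicate 1 were 0.772 (exact 95% interval 0.763 to 0.780). Mirlet7g held 42.5% in replicate 2 and 39.9% in replicate 1, with an odds ratio of 1.11 (1.10 to 1.13). Mirlet7d held 15.1% and 12.7%, and its odds ratio of 1.22 (1.20 to 1.24) was the highest of the 6.

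Mirlet7b held 8.61% of the members' reads in replicate 2 and 7.93% in replicate 1, with an odds ratio of 1.09 (1.07 to 1.12). Mirlet7e held 1.33% and 1.16%, with 1.15 (1.10 to 1.21), and Mir98 held 2.14% and 2.23%, with 0.956 (0.922 to 0.990). The shares of 1 whole are not independent of each other. The share of Mir98 was lower in replicate 2, as was that of Mirlet7i, and the other 4 were higher.

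**Figure D3:**
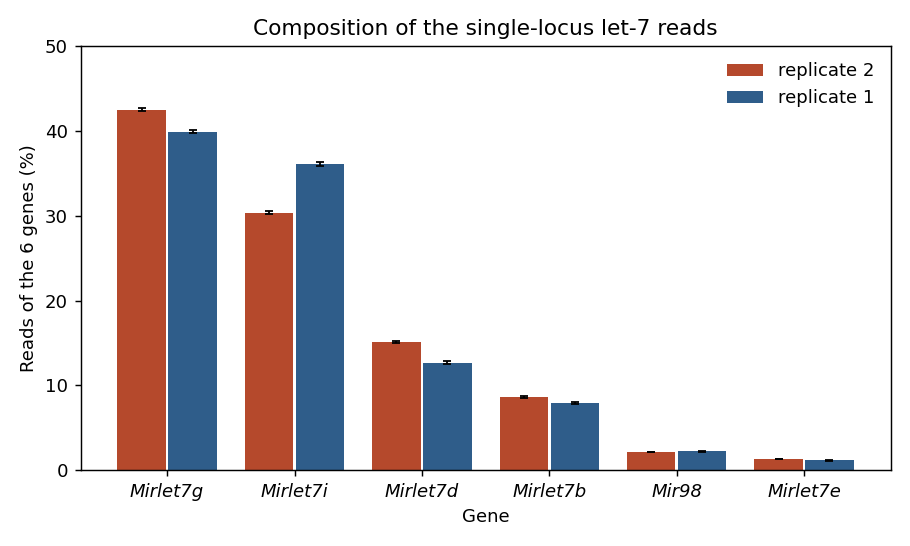
Percent of the reads of the 6 single-locus let-7 genes held by each gene, with bars for replicate 2 and replicate 1 and exact 95% binomial intervals. Mirlet7i holds 30.4% in replicate 2 and 36.1% in replicate 1, while Mirlet7g and Mirlet7d hold more in replicate 2.

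Ratios between members give the same comparison without the shared whole. The ratio of Mirlet7d to Mirlet7i reads was 0.496 in replicate 2 and 0.352 in replicate 1, a difference of 0.50 on the log2 scale and the widest of the 15 pairs. The ratio of Mirlet7g to Mirlet7i, the pair with the fewest letter differences, was 1.40 in replicate 2 and 1.11 in replicate 1. In contrast, Mirlet7b stood at 0.203 reads per Mirlet7g read in replicate 2 and 0.199 in replicate 1, and Mirlet7d at 11.3 reads per Mirlet7e read in replicate 2 and 10.9 in replicate 1. The differences of these ratios between the libraries were 0.03 and 0.05 on the log2 scale.

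The single-locus genes held nearly all reads that were counted for the let-7 family. Of the reads of the 14 let-7 genes, they held 96.02% (95.96 to 96.09) in replicate 2 and 96.00% (95.92 to 96.08) in replicate 1. The 6 duplicated genes together had 15143 reads in replicate 2 and 9542 in replicate 1, and most of these were at Mirlet7f-2, with 12534 and 7857. Mirlet7c-2 had 1009 and 690 reads, Mirlet7a-1 had 452 and 310, and Mirlet7c-1 had 408 and 275. Mirlet7f-1 had 399 and 195 reads, and Mirlet7a-2 had 341 and 215. Their mature 5p strands occur at 2 loci each, so that a whole 5p read of these genes has several matches and goes uncounted. The share of 96% is therefore one of counted reads and does not rank let-7g above let-7a, let-7c or let-7f in the tissue.

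The remaining let-7 genes are Mir7j and Mir7k, the annotated symbols of let-7j and let-7k. Mir7j had 45 reads in replicate 2 and 31 in replicate 1, and Mir7k had 0 in both. Of the 6 duplicated genes, 5 were called higher in replicate 2 and Mirlet7a-1 was not called, with a fold of 1.17 (1.01 to 1.36) and an adjusted p of 0.0544 in the exact binomial test. That test called 33.3% of all genes higher, and edgeR's exact test called 0 of the 6 duplicated genes. Their median log2 fold was 0.30, against 0.46 for the single-locus genes, and this difference was not tested. As a sum, the duplicated genes were 1.28-fold higher in replicate 2 (1.24 to 1.31) and the single-locus genes also 1.28-fold (1.28 to 1.29).

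Of the 6 members, Mirlet7b, Mirlet7d, Mirlet7e and Mir98 have a microRNA gene within 10 kb on the same strand, and Mirlet7g and Mirlet7i have none. Mirlet7e had 0.795 reads per read of Mir99b, which ends 94 bases before it, in replicate 2 and 0.827 in replicate 1. Per read of Mir125a, 367 bases after it, Mirlet7e had 1.74 reads in replicate 2 and 1.67 in replicate 1. Mir99b and Mir125a belong to other microRNA families, and both were called higher in replicate 2, by 1.53-fold (1.47 to 1.60) and 1.42-fold (1.33 to 1.51), beside 1.47-fold for Mirlet7e. The log2 ratio of Mirlet7e to Mir99b differed between the libraries by -0.06 and that to Mir125a by 0.05.

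Mir98 had 0.626 reads per read of Mirlet7f-2, 785 bases away, in replicate 2 and 0.654 in replicate 1. Mirlet7b had 31.3 reads per read of Mirlet7c-2, 621 bases away, in replicate 2 and 26.4 in replicate 1. Mirlet7d had 122 reads per read of Mirlet7a-1 in replicate 2 and 94.1 in replicate 1, and 138 and 150 per read of Mirlet7f-1. The neighbours Mirlet7f-2, Mirlet7c-2, Mirlet7a-1 and Mirlet7f-1 have duplicated 5p strands, so these ratios are of counted reads only.

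**Figure D4:**
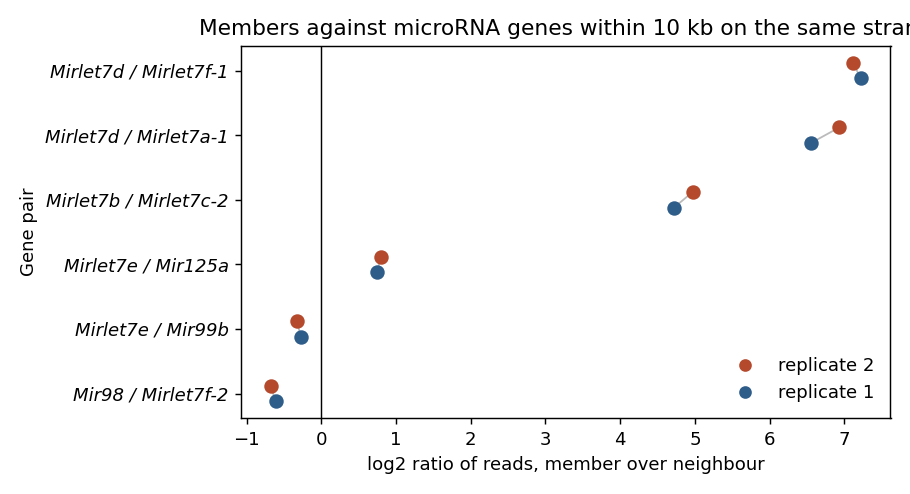
Log2 ratio of the reads of a single-locus let-7 gene to those of each microRNA gene within 10 kb on the same strand, with 1 point per library. Ratios to Mir99b and Mir125a lie between -0.33 and 0.80, and those to duplicated let-7 genes of the Mirlet7d and Mirlet7b clusters lie between 4.72 and 7.22.

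Of the 6 genes of the Mir99, Mir100 and Mir125 families that lie in let-7 clusters, 3 were called higher in replicate 2, 1 lower and 2 were not called. Over all genes 63.0% were called in either direction, so this share is close to the background, and edgeR's exact test called 0 of the 6. Those called higher were Mir99b, Mir125a and Mir100, the last with a fold of 1.09. Mir99a was 0.743 of its level in replicate 1, with 47078 reads in replicate 2 and 50925 in replicate 1. Mir99a lies in the cluster of Mirlet7c-1, and none of the single-locus genes is its neighbour.

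For each member, the gene outside the let-7 family with the most similar levels was the one nearest in log2(CPM + 1) over the 2 libraries. The closest match was that of Mirlet7e with Mir195a, of the miR-15/16 family, which had 4681 reads in replicate 2 and 2618 in replicate 1, at a distance of 0.07 on the log2 scale. Mir98 was nearest to Mir744 at a distance of 0.21, Mirlet7d to the imprinted Mir127 at 0.34, and Mirlet7b to Mir322 at 0.52. Mirlet7i was nearest to Mir23a at 0.60 and Mirlet7g to the endothelial Mir126a at 0.85. The exact binomial test called each of these nearest genes higher in replicate 2 too, with folds from 1.04 for Mir322 to 1.52 for Mir23a. It called 33.3% of all genes higher. The nearest genes were picked by their levels in both libraries, so folds like those of the members are partly built in. With 2 libraries, a small distance says that levels are alike in both and nothing about a shared pattern.

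Markers of several cell types also differed between the libraries. Calls here are those of the exact binomial test, which called 91 of the 273 genes higher and 81 lower, or 63.0% in either direction. In edgeR's exact test, 1 gene was called in the skeletal muscle list, 1 in the slow-fibre list and 0 in the others. The counted reads of the 8 skeletal muscle genes were 3.29-fold higher as a sum in replicate 2 (3.25 to 3.33). Of the 7 detected genes, 4 were called higher and 3 were not called. Their median log2 fold was 0.19, with a range of -0.73 to 3.83, so the sum does not stand for a typical gene. The erythroid genes Mir451a and Mir144 summed to 8982 CPM in replicate 2 and 37348 CPM in replicate 1, and both were called lower in replicate 2. Smooth muscle genes summed to 62544 CPM in replicate 2 and 120291 CPM in replicate 1, with both of 2 called lower. The endothelial list of 3 genes summed to 112904 CPM in replicate 2 and 88612 CPM in replicate 1, with 1 called higher and 2 not called. Mir126a held 233890 of its 234625 reads in replicate 2 and 140627 of 141228 in replicate 1. The median log2 fold of the 3 genes was -0.011. The slow-fibre genes Mir499 and Mir208b summed to 1163 CPM in replicate 2 and 57.1 CPM in replicate 1. Only 1 of these 2 genes had at least 10 reads in both libraries, and Mir499 is also in the skeletal muscle list. Leukocyte genes summed to 2091 CPM in replicate 2 and 1422 CPM in replicate 1, with 2 of 4 called higher and 2 lower. The glial gene Mir338 had 532 CPM in replicate 2 and 1513 CPM in replicate 1 and was called lower. The liver gene Mir122 had 167 CPM in replicate 2 and 201 CPM in replicate 1 and was not called, with a fold of 0.868 (0.744 to 1.01). No marker of these lists was at 0 in both libraries, and their part in the folds of the let-7 genes was not tested.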

How the data were processed

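The 2 small RNA libraries were analysed as 1 group. Each deposited file lists raw read counts by microRNA gene, made on mm10 with the M21 annotation, per the read-me text deposited by the authors. For aligner and counter, names were not given in the sources used here. From the layout and values, the 3 count columns were read as without regard to strand, strand of the gene (used here) and opposite strand, and 4 summary rows stayed out of library sizes. Positions and symbols are from GENCODE M21 and sequences from RefSeq (GRCm38.p6).

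Reads were tested per gene between libraries with an exact binomial test on TMM-scaled sizes (edgeR 4.0.16, R 4.3.3), with at least 10 reads in both libraries, Benjamini-Hochberg adjustment over 273 genes and a threshold of 0.05. Alternatives were other scalings (DESeq2 1.42.0 size factors), minimums, totals, strand, a pseudocount of 0.5, edgeR's exact test with 1 dispersion for all genes and leaving out a library. The binomial procedure was run on simulated counts that held counting error only, so that run says nothing about spread between libraries or animals. Python 3.11.15, scipy 1.17.1, pandas 2.3.3 and matplotlib 3.10.9 were used. The genes named were the 6 members, the other let-7 genes, neighbours within 10 kb, listed cluster genes, nearest genes and markers. The rule for the members uses no measured value, but members and lists were chosen with earlier results of these data known.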

Additional observations from a re-analysis of the deposited data

Results flagged for a closer look

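Signal stood in entries other than those used for the 6 genes. Multiply matched reads amounted to 10919725 in replicate 2 and 7195252 in replicate 1, and the let-7 share among them was not analysed here. The annotated gene Gm25927, opposite Mirlet7e, listed 4895 opposite-strand reads in replicate 2 and 2670 in replicate 1, and 0 reads on its own strand in both libraries. These are the same numbers as the reads of Mirlet7e on its own strand. Since Gm25927 lies over Mirlet7e, they are the reads of Mirlet7e listed again and not further signal.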

How the results depend on the processing

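The 6 calls of the binomial test were kept with total scaling, median-of-ratios scaling, no filter and a minimum of 50 reads. Every member was higher in replicate 2 under each. Of all genes, 33.3% were called higher in the main test and 28.6% with total scaling. For the other settings that share is not given here, so the calls cannot be set against it. Across all alternatives the folds ran from 1.02 to 1.08 for Mirlet7i and from 1.44 to 1.52 for Mirlet7d. With edgeR's exact test and 1 dispersion for all genes, the number of members called was 0. The dispersion was estimated with the tested difference in it, so the 0 says little about variation between animals. Without regard to strand, Mirlet7e had 0 reads and could not be tested, since its overlap with Gm25927 then leaves them ambiguous, and the other 5 were called higher. The mean share of the 6 genes was then 22.7%, against 16.0% by strand, and their share of let-7 reads was 96.05%, against 96.01%. The reads of the other 5 members were unchanged. The total of gene-assigned reads was smaller, 1477598 in replicate 2 and 1085116 in replicate 1, which alone makes the mean share higher. The mean share was 19.04% with the most abundant gene left out of the total and 2.72% with multiply matched reads added to it. The nearest genes were the same with a pseudocount of 0.5. Leaving out either library leaves the value of the other, and with 2 libraries the move of a mean is a fixed part of their SD, so this shows nothing about stability. No paired analysis was possible because the series holds 1 group. At this depth counting error is small beside the difference between the libraries, so the number of libraries limits the precision.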
